A study of Mus musculus with 11 samples.

Results

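The 4 Hox clusters of the mouse genome were examined for autosomal regions enriched in Xist RNA pulldowns. The members were all peaks that overlapped, by at least 1 bp, a Hox cluster widened by 250 kb on each side, and they numbered 47 of 19818 peaks in 6 lists. The windows, on the genome build mm9, were chromosome 6 from 51.85 to 52.50 Mb for HoxA, chromosome 11 from 95.75 to 96.50 Mb for HoxB, chromosome 15 from 102.50 to 103.12 Mb for HoxC and chromosome 2 from 74.24 to 74.86 Mb for HoxD. They hold 38 named Hox genes, which are Hoxa2 to Hoxa7, Hoxa9 to Hoxa11 and Hoxa13 (10 genes), Hoxb1 to Hoxb9 and Hoxb13 (10 genes), Hoxc4 to Hoxc6 and Hoxc8 to Hoxc13 (9 genes), and Hoxd1, Hoxd3, Hoxd4 and Hoxd8 to Hoxd13 (9 genes). Below, "inside" is the cluster without its widening, 150 kb for HoxA, 250 kb for HoxB and 120 kb each for HoxC and HoxD, and "beside" is the 250 kb on each side. The files give no gene positions on mm9, so a peak was placed inside or beside a cluster and not on a single Hox gene. The limits of each inside come from the windows and were not set against gene positions. An inside may therefore reach past its outermost Hox genes.

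The libraries came from RNA antisense purification and DNA sequencing (RAP-seq), in which biotinylated probes against the long noncoding RNA Xist pull down the chromatin it lies on. The 6 pulldowns came from female epiblast-like cells (EpiLCs), with 2 libraries of day 2 (D2) and 2 of day 4 (D4), and from embryonic fibroblasts (MEFs), with 1 female and 1 male library. EpiLCs were made from mouse embryonic stem cells, kept without feeder cells in LIF with the inhibitors CHIR99021 and PD0325901 and then moved to Activin A and bFGF. MEFs were grown in serum without feeder cells, and no library received any further agent. The labels name no strain, genotype, age of the embryos or cell clone, and do not say whether replicates were separate cultures, so the spread between them may be technical. Male MEFs, which normally do not express Xist, give the background of the pulldown in fibroblasts only; male EpiLCs were not analysed here. The labels do not name Polycomb, and no Polycomb mark was measured in these files, so the Hox clusters' standing as Polycomb targets is background here.

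As background, Hox genes encode homeodomain transcription factors that set position along the body axis, and they lie in 4 clusters whose gene order follows the order in which they are used from hindbrain to tail. In pluripotent cells the clusters are among the broadest targets of the Polycomb repressive complexes, which bind CpG-rich DNA and keep Hox genes silent until the axis forms. Xist spreads along the inactive X chromosome, where Polycomb complexes and their histone marks gather as well.

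The promoters of HoxA and HoxD are shown first, because these 2 clusters held no peak inside in any of the 6 lists. Sequences are the 250 bases before the transcription start from RefSeq on GRCm38.p6, a build other than mm9, so these positions cannot be set against the peak positions. They are written 5′ to 3′ along the gene with each CpG in capitals, for the gene with most and the gene with fewest CpG of each cluster.
Hoxa13, GRCm38.p6 chr6:52260881-52261130, strand minus: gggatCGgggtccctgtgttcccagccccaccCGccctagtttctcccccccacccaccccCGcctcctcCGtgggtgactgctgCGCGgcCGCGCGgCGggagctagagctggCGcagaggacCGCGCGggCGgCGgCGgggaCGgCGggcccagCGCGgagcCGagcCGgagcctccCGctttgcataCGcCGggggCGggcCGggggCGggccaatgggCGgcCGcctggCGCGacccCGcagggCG
Hoxa9, GRCm38.p6 chr6:52227371-52227620, strand minus: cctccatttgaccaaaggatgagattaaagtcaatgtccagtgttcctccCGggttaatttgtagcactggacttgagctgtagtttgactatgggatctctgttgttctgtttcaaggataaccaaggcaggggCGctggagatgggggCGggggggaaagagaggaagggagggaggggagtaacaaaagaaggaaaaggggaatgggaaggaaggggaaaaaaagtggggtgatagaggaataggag
Hoxd13, GRCm38.p6 chr2:74667975-74668224, strand plus: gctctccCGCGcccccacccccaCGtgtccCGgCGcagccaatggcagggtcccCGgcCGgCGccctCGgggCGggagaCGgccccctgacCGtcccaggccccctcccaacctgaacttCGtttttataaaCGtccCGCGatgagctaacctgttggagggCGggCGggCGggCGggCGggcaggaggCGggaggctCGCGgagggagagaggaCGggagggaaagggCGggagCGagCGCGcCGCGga
Hoxd4, GRCm38.p6 chr2:74721728-74721977, strand plus: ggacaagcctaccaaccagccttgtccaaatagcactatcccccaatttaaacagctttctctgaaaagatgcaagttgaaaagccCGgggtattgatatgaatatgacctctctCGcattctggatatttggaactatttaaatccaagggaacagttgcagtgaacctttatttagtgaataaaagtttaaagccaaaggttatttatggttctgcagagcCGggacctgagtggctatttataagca

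Hoxa13 and Hoxd13, which pattern the digits and the urogenital tract, had 35 and 31 CpG in these 250 bases and a G+C content of 80% and 74.4%. Hoxa9, used in the trunk, and Hoxd4, used in the hindbrain and neck, had 3 CpG each and a G+C content of 49.6% and 40.4%. RefSeq promoters were matched for 18 of the 19 HoxA and HoxD members, all but Hoxa4. The motif searched was CG, which reads the same on both strands, and a gene with several starts was counted at the start with most CpG. The median was 18 CpG over 9 HoxA members and 13 over 9 HoxD members, against 6 over 27025 genes of the table. Of the 18 members, 14 lay above that median of 6, as did 13144 of the 27025 genes. At least 1 CpG was present in 18 of 18 members and in 92.3% of all genes. Over these 250 bases, the clusters without a peak inside held promoters with many and with few CpG. CpG past the start were not counted. For HoxB and HoxC 4 of 19 promoters were matched, too few for a count, so a link between CpG and peaks was not tested.

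Xist peaks at the Hox windows were nearly all from D2, whose lists also held most peaks of the series (8227 and 7544 of 19818). D2 replicate 1 had 26 peaks in the 4 windows and replicate 2 had 19, while D4 replicate 1 had 1, D4 replicate 2 had 0, female MEFs had 0 and male MEFs had 1. All D2 values lay above all others. A D2 peak in a window of this size was itself common. Of all windows of the same width on the same chromosome, taken in steps of 50 kb without those that overlap the Hox window, 35.1% and 34.3% held a peak of D2 replicates 1 and 2 on chromosome 6, 53.4% and 51.3% on chromosome 11, 28.9% and 26.9% on chromosome 15 and 41.4% and 38.2% on chromosome 2. For D4 replicates 1 and 2 these shares were 14.5% and 15% on chromosome 6, 17.9% and 14.5% on chromosome 11, 14.2% and 12.2% on chromosome 15 and 8.97% and 8.18% on chromosome 2. For female and male MEFs they were 3.19% and 7.06% on chromosome 6, 11% and 14.1% on chromosome 11, 9.9% and 10.3% on chromosome 15 and 5.62% and 5.82% on chromosome 2. Having at least 1 D2 peak at 3 of 4 clusters, and none or 1 in the other lists, is therefore not particular to the Hox clusters. The windows overlap each other and are not independent, so their percentages describe the chromosome and carry no p-value.

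The D2 mean was 22.5 ± 4.95 peaks and the D4 mean 0.5 ± 0.707 (SD, n = 2 each), a difference of 22 peaks that exceeded the spread of both days. The two-sided exact permutation test over libraries gave p = 0.333, the smallest that 2 libraries against 2 allow. The length under these peaks was 677 and 538 kb in the D2 lists, 2.93 and 0 kb in the D4 lists, 0 kb in female MEFs and 0.174 kb in male MEFs, of 2640 kb in all. The D2 mean of 607 ± 98.9 kb exceeded the D4 mean of 1.46 ± 2.07 kb (SD, n = 2 each) by 606 kb (exact permutation p = 0.333, again the smallest possible).

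The D2 lists were also the longest, with 8227 and 7544 peaks against 1553 and 1148 peaks at D4. The female MEF list had 1020 peaks and the male MEF list 326. Hox peaks were 0.316% and 0.252% of the D2 lists, 0.0644% and 0% of the D4 lists, 0% of the female MEF list and 0.307% of the male MEF list. D2 peaks covered 25.7% and 20.4% of the window length, against 4.01% and 2.94% of the same chromosomes, weighted by window length. At D4 it was 0.111% and 0% against 0.601% and 0.458%, in female MEFs 0% against 1.21% and in male MEFs 0.00659% against 0.0241%. The windows were thus covered more than their chromosomes at D2 and less in the other lists. With the 4 EpiLC lists reduced to their 1148 peaks of highest −log10 p, a comparison chosen after the data were seen, each D2 list kept 4 Hox peaks, D4 replicate 1 kept 1 and D4 replicate 2 kept 0. With all 6 lists reduced to 326 peaks, the length of the male MEF list, no EpiLC list kept a Hox peak. The only Hox peak left was then the 1 of male MEFs, the background library. Sequencing depth is unknown, and its part in the difference between days was not tested.

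**Figure D1:**
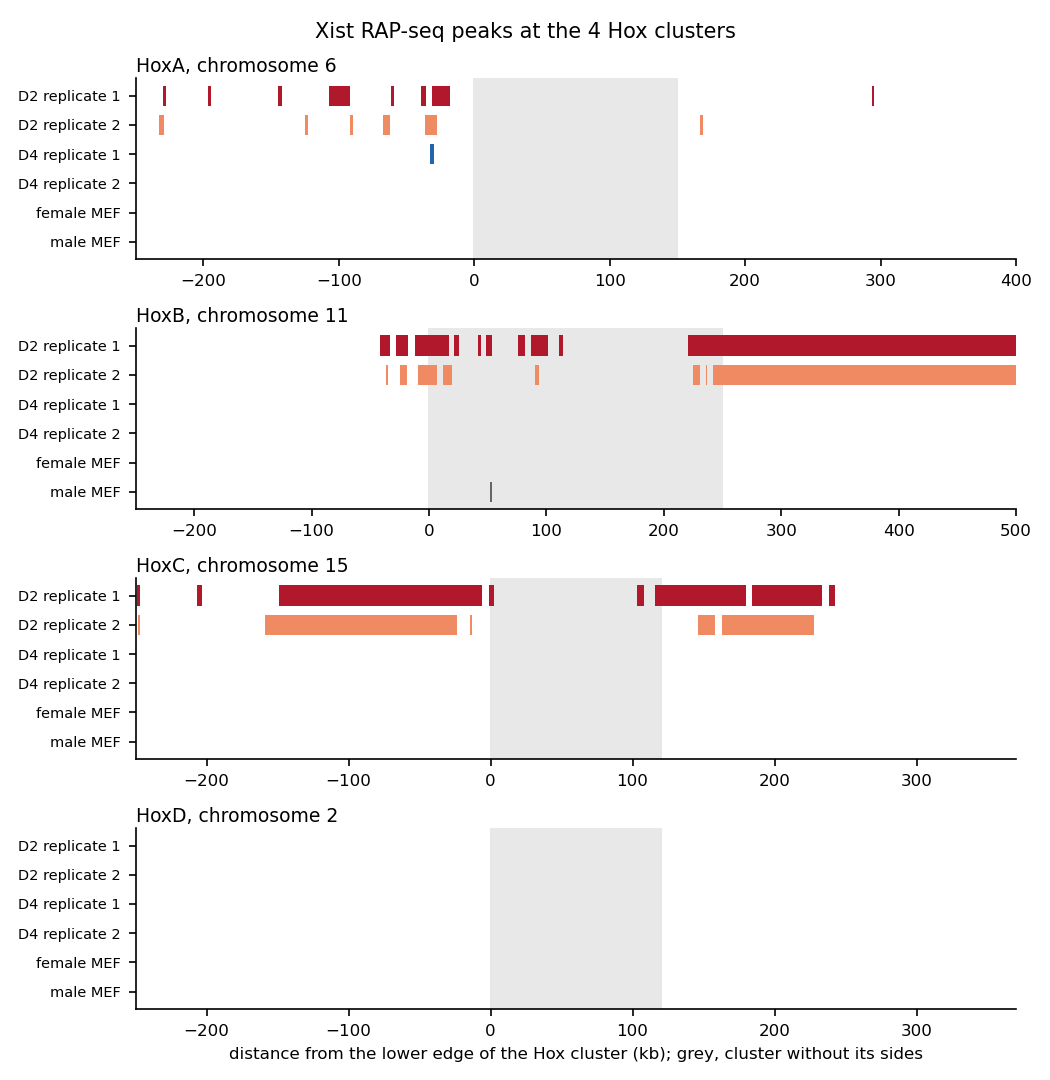
Peaks of the 6 lists at the 4 Hox clusters. The horizontal axis is the distance in kb from the lower edge of each cluster, grey marks the cluster without its sides, each row is 1 library, bars are peaks clipped to the window and bars under 1.5 kb are drawn 1.5 kb wide. D2 peaks lie beside HoxA, beside HoxC and, in replicate 1, at the inner ends of HoxC, inside and beside HoxB, and nowhere at HoxD.

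The 4 windows differed in how much of them D2 peaks covered. HoxB and HoxC were among the most covered windows of their chromosomes, HoxA was moderately covered and HoxD was empty, in both replicates.

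HoxC was the cluster with covered sides and a mostly bare centre. D2 replicate 1 had 8 peaks in its window and covered 44.4% of it, and replicate 2 had 5 peaks and covered 34.6%. The mean over windows of chromosome 15 was 2.34% and 1.99%, and 1.77% and 1.93% of windows were covered at least as much. On the side of Hoxc13, a gene of hair and nail formation, a peak of 143 kb in replicate 1 (chromosome 15, 102600738 to 102743813, fold enrichment 2.69) and 1 of 135 kb in replicate 2 (102591199 to 102726676, fold enrichment 2.90) filled most of the flank. Covered shares were 59.8% and 55.2% of that side, and its highest fold enrichments, 3.02 and 2.92, were at short peaks near its far end that overlap each other (102501302 to 102503292 and 102501404 to 102503283). On the side of Hoxc4, beyond which the RefSeq gene order names Smug1, a uracil-DNA glycosylase, and Cbx5, a heterochromatin protein, they were 45.6% and 30.5%. The longest peaks there were 64.0 kb (102866009 to 102930014, fold enrichment 2.55) and 64.6 kb (102913009 to 102977574, fold enrichment 2.87).

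Inside HoxC, D2 replicate 1 covered 12.0 kb of 120 kb (10.0%) and replicate 2 covered 0 kb. Of 120 kb windows on chromosome 15, 12.1% and 11.6% held a peak of these lists, 5.94% and 5.14% a peak of D4 replicates 1 and 2, 5.78% a female MEF peak and 2.36% a male MEF peak; the 4 latter lists had none inside HoxC. The 12.0 kb came from 3 peaks at the ends of the cluster, of which 102748889 to 102752677 (fold enrichment 2.61) and 102866009 to 102930014 crossed its edges and 102852835 to 102858189 (5.36 kb) lay inside. The stretch from 102752678 to 102852834, 100.2 kb or 83.5% of the cluster, held no peak in either D2 list. In replicate 2 the bare stretch ran from 102736169 to 102896339 (160 kb). Bare stretches of this length were common on chromosome 15, where 26.6% and 21.9% of the stretches between peaks of replicates 1 and 2 were at least as long. Such stretches made up 93.7% and 93.2% of the chromosome, taken from the first to the last peak of any list. Of the segments covered in both D2 lists, 201 kb lay in the window and 0 kb inside. The HoxC window runs past the last chromosome 15 peak of any list, which ended at 102992723.

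HoxB had the longest single region of the 4 windows. D2 replicate 1 had 10 peaks there and covered 48.0% of the window, and replicate 2 had 8 peaks and covered 39.9%, against means of 5.06% and 3.51% over windows of chromosome 11. Only 1.77% and 1.37% of these windows were covered at least as much. Both D2 lists covered 100% of the 250 kb beyond Hoxb1, which acts in hindbrain segments, with a peak of 391 kb in replicate 1 (chromosome 11, 96220942 to 96611454, fold enrichment 2.87) and of 307 kb in replicate 2 (96241894 to 96549367, fold enrichment 3.06). These were the 2 longest peaks at any Hox cluster. RefSeq names Skap1, a T-cell adaptor protein, and then Snx11 and Cbx1, a heterochromatin protein, as the next genes on that side. The side beyond Hoxb13, where Ttll6 and Calcoco2 follow, was covered to 12.1% and 6.30%.

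Inside HoxB, D2 replicate 1 covered 80.0 kb (32.0%) with 8 peaks and replicate 2 covered 33.5 kb (13.4%) with 6 peaks. Whether these peaks lie among the Hox genes or past the outermost ones cannot be told without gene positions on mm9. Of windows of 250 kb on chromosome 11, 34.7% and 32.5% held a peak of these lists, and 5.17% and 7.30% were covered at least as much. D4 and female MEF lists had no peak inside HoxB, where 9.11%, 7.65% and 6.1% of such windows held a peak of D4 replicate 1, D4 replicate 2 and female MEFs. The inside peaks lay in the part toward Hoxb13, up to near the middle of the cluster, and at the Hoxb1 end. Toward Hoxb13 they ran from a peak across the edge at 95987913 to 96016858 (28.9 kb, fold enrichment 2.62) in replicate 1 and 95990514 to 96007022 (16.5 kb, fold enrichment 2.93) in replicate 2, through 96012190 to 96019549 (fold enrichment 2.71) in replicate 2 and 96021546 to 96025700 (2.62) and 96041524 to 96044126 (2.73) in replicate 1. Replicate 1 went on with peaks at 96048846 to 96053385 (2.57), 96076056 to 96081618 (2.49), 96086945 to 96101041 (14.1 kb, 2.67) and 96111003 to 96114143 (2.64), and replicate 2 with 96089922 to 96093711 (2.77). Of these last, the peak at 96089922 lay within that at 96086945, so both lists called it.

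Toward Hoxb1 the inside of HoxB held the start of the long peak in replicate 1, and in replicate 2 the start of its long peak and short peaks at 96224838 to 96230543 (fold enrichment 2.65) and 96235605 to 96237083 (2.99). Between these, 96114144 to 96220941 (107 kb, 42.7% of the cluster) held no peak in either D2 list. Such a bare stretch was not rare on chromosome 11, where 19.7% of 580 stretches between peaks of replicate 1 were at least as long and made up 86.3% of the chromosome. Segments covered in both D2 lists made up 297 kb of the window, 30.8 kb of it inside. HoxB, whose inside was the widest, was the only cluster with such segments inside, by the limits of the windows.

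HoxA had D2 peaks almost only on its Hoxa2 side and none inside. D2 replicate 1 had 8 peaks in the window and covered 6.44% of it, and replicate 2 had 6 and covered 3.69%. The mean over windows of chromosome 6 was 4.15% and 3.25%, and 14.6% and 15.8% of them were covered at least as much. On the side of Hoxa2, a hindbrain and branchial arch gene, beyond which lie Skap2 and Snx10, the covered share was 16.5% and 8.60%. On the side of Hoxa13, followed by the homeobox gene Evx1 and by Hibadh, it was 0.263% and 1.00%, from 1 short peak in each list, at 52393649 to 52394305 (fold enrichment 2.58) and at 52266587 to 52269085 (fold enrichment 2.97). The highest fold enrichment at HoxA in replicate 1 was 2.99, at 51955278 to 51957957, and the longest peaks were 15.3 kb in replicate 1 (51992713 to 52008016, fold enrichment 2.83) and 8.51 kb in replicate 2 (52063817 to 52072325, 2.71).

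The replicates placed most HoxA peaks at different positions. Only 4.12 kb in 3 segments was covered in both D2 lists, of 61.8 kb covered in either, and the largest of these, at 52068769 to 52072325, was also the site of the single D4 peak (52067196 to 52070121, fold enrichment 2.87, −log10 q 1.61, in D4 replicate 1). It lay 29.9 kb from the cluster. The inside of HoxA was bare in all 6 lists, within a stretch of 311 kb in D2 replicate 1 and 194 kb in replicate 2. Of the stretches between peaks of these lists on chromosome 6, 8.04% and 11.1% were at least as long. They made up 83.2% and 85.2% of the chromosome. On chromosome 6, 20.5% and 20.3% of 150 kb windows held a D2 peak in replicates 1 and 2, so an empty inside was the more common state there. The shares were 7.44% and 7.48% for D4 replicates 1 and 2, 1.44% for female MEFs and 1.72% for male MEFs.

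HoxD held no peak in any of the 6 lists, inside or beside. The nearest D2 peak was 533 kb away in replicate 1, at chromosome 2, 73955510 to 73957298 on the Hoxd13 side (fold enrichment 2.57), and 541 kb away in replicate 2, at 75151200 to 75154277 on the Hoxd1 side (fold enrichment 2.71). Windows of the same chromosome had a median distance of 431 and 559 kb to the nearest peak of these lists, and 46.0% and 50.5% of them were at least as far. A window without any D2 peak was also common, at 58.6% and 61.8% of 620 kb windows on chromosome 2. Of 120 kb windows there, 20.6% and 18.9% held a D2 peak of replicates 1 and 2, 2.95% and 2.19% a D4 peak, 2.41% a female MEF peak and 1.22% a male MEF peak. By the distance to the nearest peak, HoxD was therefore as far from D2 peaks as a typical window of its chromosome. The bare stretch over it was 1347 kb in replicate 1 and 2604 kb in replicate 2. Only 3.87% and 2.61% of the stretches between peaks on chromosome 2 were at least as long, but these made up 64.7% and 60.7% of the chromosome.

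**Figure D2:**
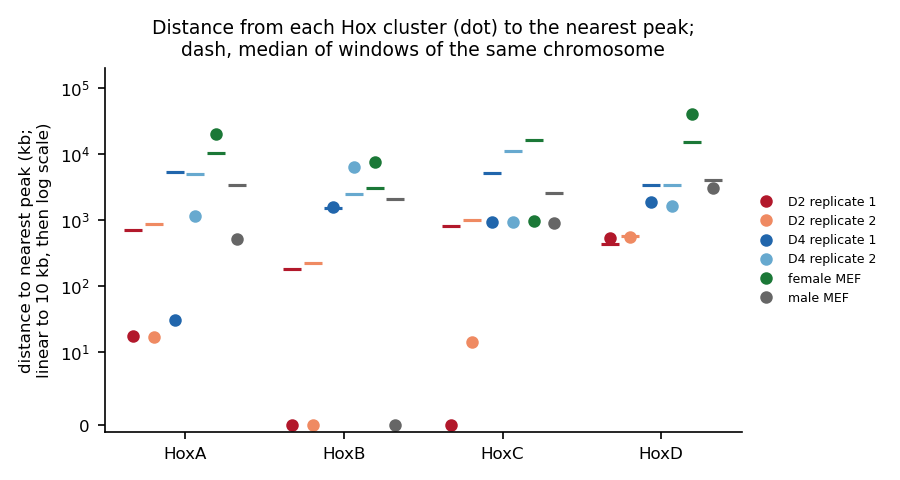
Distance in kb from each Hox cluster, without its sides, to the nearest peak, by library (dots), with the median over windows of the same chromosome (dashes). The vertical axis is linear to 10 kb and logarithmic above, and 0 means that a peak overlaps the cluster. D2 dots lie below their dashes at HoxA, HoxB and HoxC and near them at HoxD.

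At the other 3 clusters D2 peaks lay closer than in most windows. The distance from HoxA was 17.6 and 16.6 kb in D2 replicates 1 and 2, against medians of 713 and 863 kb over windows of chromosome 6, and 78.0% and 78.4% of windows were at least as far. HoxB was overlapped in both D2 lists, and the medians on chromosome 11 were 181 and 223 kb. HoxC was overlapped in replicate 1 and 13.8 kb from a peak in replicate 2, against medians of 797 and 998 kb on chromosome 15.

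At D4 the nearest peaks were 29.9 and 1160 kb from HoxA in replicates 1 and 2, 1570 and 6409 kb from HoxB, 942 and 936 kb from HoxC and 1876 and 1635 kb from HoxD. The medians over windows were 5341 and 4937 kb, 1514 and 2482 kb, 5122 and 11049 kb, and 3424 and 3427 kb in the same order. At HoxA 91.2% and 70.8% of windows were at least as far, and at HoxB 48.8% and 38.5%. At HoxC the shares were 73.1% and 78.2%, and at HoxD 66.5% and 68.9%. HoxB was thus close to the median window in replicate 1 and farther in replicate 2. The other 3 clusters were nearer than the median window in both replicates.

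Across the 4 clusters together, D2 peaks covered less of the inside than of the sides. D2 replicate 1 covered 14.4% of the 640 kb inside and 29.3% of the 2000 kb beside, and replicate 2 covered 5.23% and 25.2%. The difference was −14.9 and −20.0 percentage points, a mean of −17.4 ± 3.60 (SD, n = 2). It rested on the long peaks: without peaks of 100 kb or more, a setting chosen after the data were seen, it was 0.226 points in replicate 1 and −1.97 points in replicate 2.

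The clusters did not share 1 pattern in this respect. The difference was −8.38 and −4.80 points at HoxA, −24.0 and −39.8 at HoxB, −42.6 and −42.9 at HoxC and 0 at HoxD in D2 replicates 1 and 2. The median over windows of each chromosome was 0. At HoxC 0.107% of chromosome 15 windows had a difference as low or lower in each list, at HoxB 1.37% and 0.133% of chromosome 11 windows, and at HoxA 4.81% and 6.18% of chromosome 6 windows. A window without a peak has a difference of 0 by construction, and such windows made up 64.9% and 65.7% on chromosome 6, 46.6% and 48.7% on chromosome 11 and 71.1% and 73.1% on chromosome 15. Without the long peaks HoxA kept −8.38 and −4.80 points and HoxC had −14.0 and −15.8, while HoxB turned to 14.3 and 6.99 points in favour of the inside.

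**Figure D3:**
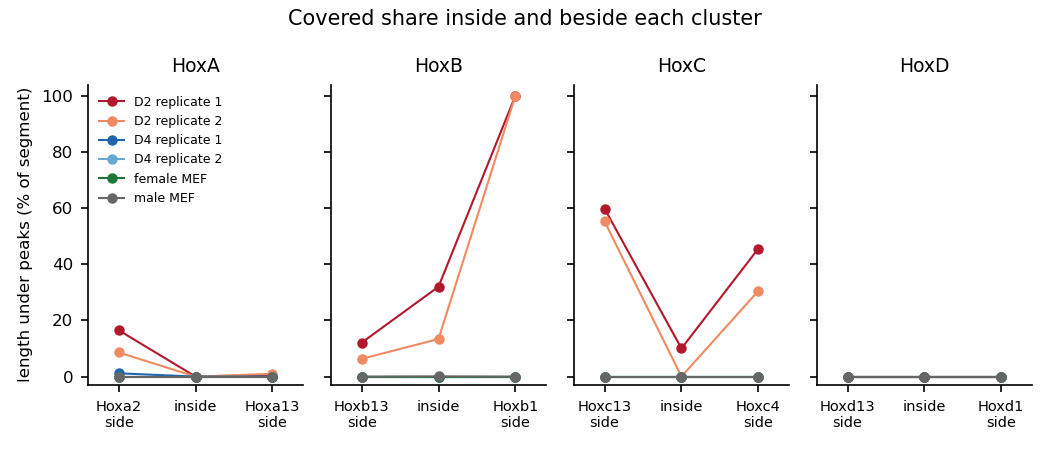
Share of each segment under peaks, in percent, for the inside of each cluster and its 2 sides, named by the Hox gene at that end, with 1 line per library. Lines at 0 lie on each other. D2 lines dip at HoxC, where the inside held 10.0% and 0%, and climb to 100% at the Hoxb1 side of HoxB.

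Windows with sides as covered as those of HoxC were usually covered in the middle too. On chromosome 15, 22 windows in D2 replicate 1 and 33 in replicate 2 had sides covered at least as much as HoxC. Their median inside coverage was 98.3% and 86.7%, and 0 of 22 and 0 of 33 had an inside covered as little as HoxC. On chromosome 11, 21 and 10 windows had sides covered at least as much as HoxB, with a median inside of 77.3% and 69.1%, and 1 of 21 and 0 of 10 had an inside covered as little. On chromosome 6 this was less rare, at 42 of 375 and 52 of 388 windows with sides like those of HoxA. Windows in steps of 50 kb share most of their length, so these counts come from few separate domains, and the comparison was set up after the values were seen.

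**Figure D4:**
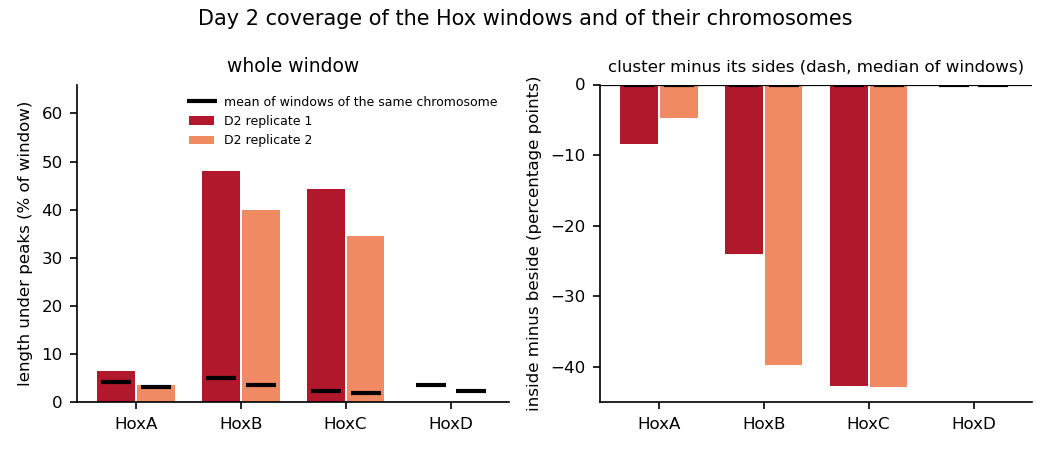
D2 coverage of the Hox windows. Left, length under peaks in percent of the whole window (bars, 1 per D2 library) with the mean over windows of the same chromosome (dashes); right, covered percent inside minus beside in percentage points (bars) with the median over windows (dashes, at 0). HoxB and HoxC stand far above their chromosomes' means and have the lowest differences.

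The Hox peaks were ordinary in strength. Fold enrichment, the authors' linear value for each peak relative to the background of their caller, had a median of 2.61 over the 26 Hox peaks of D2 replicate 1 and 2.86 over the 19 of replicate 2, against 2.61 and 2.80 over the whole lists. It ran from 2.36 to 3.02 in replicate 1 and from 2.65 to 3.06 in replicate 2, where the lists reached 14.1 and 11.8. In each list 1 Hox peak had a fold enrichment of at least 3, where 4.40% and 13.6% of all peaks did. The replicate 1 peak was at the far end of the HoxC window (102501302 to 102503292, 3.02), and that of replicate 2 was the long HoxB peak. The highest −log10 q was 2.43 and 2.07, so no Hox peak reached 3. The median length was 4.59 and 5.16 kb, against 3.93 and 3.56 kb over the lists. In length the Hox peaks were less ordinary, since peaks of at least 100 kb were more frequent among them. These were 2 of 26 and 2 of 19 Hox peaks, against 75 of 8227 and 42 of 7544 peaks of the whole lists. They were the same 2 domains in both lists, at HoxB and HoxC. A long peak also meets a window by 1 bp more easily than a short one.

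Agreement between D2 replicates differed by cluster. Of the 26 Hox peaks of replicate 1, 12 (46.2%) overlapped a replicate 2 peak, close to the 45.3% of the whole list. Of the 19 of replicate 2, 15 (78.9%) overlapped a replicate 1 peak, against 59.3% of the whole list. The base-pair Jaccard index, the length covered in both lists over that covered in either, was 0.817 at HoxB, 0.694 at HoxC and 0.0667 at HoxA, against 0.395 for the whole lists. Long peaks overlap more easily than short ones, and those of at least 100 kb lay at HoxB and HoxC only.

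Fibroblasts showed almost no Xist peak at the Hox clusters. Female MEFs had 0 peaks in the 4 windows, and their nearest peaks were 19926 kb from HoxA, 7627 kb from HoxB, 951 kb from HoxC and 39973 kb from HoxD. The medians over windows were 10442, 3023, 16212 and 15070 kb in the same order, and 11.2%, 22.4%, 82.5% and 17.0% of windows were at least as far. HoxC was thus nearer to a female MEF peak than most windows of its chromosome, and the other 3 clusters were farther. That peak was at 101747368 to 101798951. The peaks nearest to HoxC in D4 replicates 1 and 2 and in male MEFs began close by, at 101791907, 101813744 and 101840776. The background library thus had a peak in this region too. Male MEFs had 1 peak in the 4 windows, of 0.174 kb, inside HoxB at chromosome 11, 96052114 to 96052287 (fold enrichment 2.89, −log10 q 1.54), where 5.13% of 250 kb windows of the chromosome held a male peak. The nearest male peaks were 503 kb from HoxA, 909 kb from HoxC and 3040 kb from HoxD, against medians of 3337, 2556 and 4069 kb. The HoxB peak lay within the D2 replicate 1 peak at 96048846 to 96053385, which had no counterpart in replicate 2. None of the other D2 Hox peaks overlapped a male or a female MEF peak, which follows from the near absence of MEF peaks there. The share of the whole D2 lists that overlaps MEF peaks is not given here, so this is no result about the Hox clusters. Each kind of MEF had a single library, so these values have no replicate check.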

How the data were processed

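Xist RAP-seq was represented by 6 deposited lists of autosomal peaks, 1 per pulldown library; the 5 inputs were not used here. The submitters' processing notes name build mm9, MACS2 2.2.7.1, bedtools 2.26.0, Picard, SAMtools 1.9, Bowtie2 2.2.9 and Trim Galore 0.4.1. Their settings, and the input set against each pulldown, are not given in the sources used here. Per deposited peak, the authors give fold enrichment (a linear ratio), −log10 p, −log10 q and a score that was not used. Read counts were not analysed here, so depth is unknown and values have no interval for counting error. The lowest −log10 p was 4.57 in male MEFs and 2.80 to 2.88 elsewhere, so weak male peaks could be missing.

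Peaks, covered length and distances were computed with Python 3.11.15 and NumPy 2.4.6 from the windows of the rule, and the functions were tested on simulated data. Tiled windows ran from the first to the last peak of any list on a chromosome. D2 and D4 were compared with a two-sided exact permutation test over libraries. Peaks inside a cluster, and the longest and strongest of each list beside it, were named by rule, and other named peaks were chosen after their values were seen. The members, windows and lists were chosen with earlier results of these data known. Other Polycomb targets and Polycomb subunit genes were not examined, since no gene positions on mm9 were used.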

Additional observations from a re-analysis of the deposited data

How the results depend on the processing

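The difference of 22 peaks between D2 and D4 and that of 606 kb kept their direction in every setting that left peaks in the windows. It was 2 peaks and 271 kb with a −log10 q of at least 2, 1 peak and 130 kb with a fold enrichment of at least 3, 3.5 peaks and 311 kb with the EpiLC lists reduced to equal number, 375 kb with sides of 100 kb and 198 kb without peaks of 100 kb or more. It was 0 peaks and 0 kb with a −log10 q of at least 3 or all lists reduced to 326 peaks, where neither day kept a Hox peak. Leaving out 1 library gave 18.5 to 25.5 peaks and 536 to 676 kb. Replicate 1 of both days re-analyses data deposited earlier, per the labels, so the number may mark a batch; within replicate 1 the counts were 26 and 1 and within replicate 2 they were 19 and 0. With a replicate block (exact sign-flip permutation) p was 0.5, the smallest that 2 pairs allow, for the same 22 peaks and 606 kb.

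The inside minus beside difference of −17.4 points was −9.71 with a −log10 q of at least 2, 0 with at least 3, −5.67 with a fold enrichment of at least 3, −0.872 without peaks of 100 kb or more, −29.5 and −6.91 with sides of 100 and 500 kb, −21.3 without HoxA, −9.48 without HoxC and −24.2 without HoxD, and −20.0 to −14.9 without either replicate. The mean percent of windows covered at least as much was 1.99 for both HoxB and HoxC with windows that do not overlap. With a −log10 q of at least 2 it was 57.5 for HoxA, 0.575 for HoxB and 54.6 for HoxC, and with a fold enrichment of at least 3 it was 100 for HoxA, 50 for HoxB and 51.4 for HoxC. Several of these are means of a list that kept a peak and one that kept none, which gives 100 by construction: with −log10 q, replicates 1 and 2 had 15.0 and 100 for HoxA and 9.26 and 100 for HoxC, and with fold enrichment 100 and 0 for HoxB and 2.73 and 100 for HoxC. Without either D2 replicate it was 14.6 to 15.8 for HoxA, 1.37 to 1.77 for HoxB and 1.77 to 1.93 for HoxC. Mean D2 distances with a −log10 q of at least 2 were 234 kb (HoxA), 589 kb (HoxC) and 698 kb (HoxD). With a fold enrichment of at least 3 they were 370 kb, 7207 kb (HoxB), 589 kb and 717 kb. The HoxB mean describes neither list, since the distance was 14415 kb in replicate 1 and 0 kb in replicate 2, and for HoxC, under both settings, it was 247 and 932 kb. From the cluster centre they were 92.1, 21.1, 58.3 and 597 kb for HoxA to HoxD. Without either replicate they were 16.6 to 17.6 kb for HoxA, 0 to 13.8 kb for HoxC and 533 to 541 kb for HoxD. Stricter settings leave fewer peaks by construction. Other causes were not tested.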
